A study of Mus musculus with 12 samples.

Results

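The 9 genes described here, Pf4, Ppbp, Gp1ba, Gp1bb, Gp9, Itga2b, Vwf, Treml1 and Tubb1, are classical genes of megakaryocytes and platelets. They were taken by symbol from a table of 55291 gene symbols counted in mouse bone marrow cells, and all 9 were found and passed the filter on low counts. The marrow came from mice of about 8 weeks. It was kept for about 24 hours in alpha-MEM medium, and the cells that had not attached, which the labels call progenitors, were sequenced in bulk from polyadenylated RNA. The design crosses genotype with short-chain fatty acids (SCFA), the products of bacterial fibre fermentation, given in the drinking water, and each of the 4 groups holds 3 libraries. Control mice, whose alleles the labels do not give, were untreated or given SCFA. Mice labelled homozygous, with the genotype STAT3Cstopfl/fl CD4Cre, were likewise untreated or given SCFA, and homozygous untreated library 1 alone carries the fuller form R26STAT3Cstopfl/fl CD4Cre. STAT3C is a constitutively active form of the transcription factor STAT3. Here it sits at the Rosa26 locus behind a floxed stop, and the Cre that removes the stop is driven by the Cd4 promoter, which is active mainly in T cells and not in megakaryocytes.

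Megakaryocytes are large polyploid cells of the marrow that arise from stem and progenitor cells. They fill their cytoplasm with granules and membrane, extend processes built on the tubulin Tubb1 into sinusoids, and release platelets from them. Platelets catch on a damaged vessel through the GPIb-IX-V receptor, which binds von Willebrand factor, and aggregate through the integrin αIIbβ3. When activated they release chemokines such as platelet factor 4 (Pf4) and pro-platelet basic protein (Ppbp) from alpha granules and move the receptor Treml1 to their surface.

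The libraries held 16954355 to 20748995 counts, of which mitochondrial genes made up 0.822% to 2.04%. Nothing in the labels ties each library to a mouse of its own, so p-values reflect only how far these libraries spread, which may be technical. All untreated libraries carry a label dated day 1 of month 3 and all SCFA libraries one dated day 30, so SCFA and the date cannot be told apart. The genotypes were compared within a date, but whether their difference changed with SCFA or with the date cannot be told apart either. The least alike pair within a group was control untreated 1 and 2, and library 1 stood apart from libraries 2 and 3 for several of the genes below. In bulk RNA, fewer megakaryocytes and less RNA per megakaryocyte cannot be told apart. Neutrophil genes led the other marker lists in these progenitor-labelled cells: 10 such genes summed to 42940 to 75380 CPM in a library, and 11 stem and progenitor genes to 185 to 232 CPM. CPM are counts divided by the library's total and multiplied by 1000000. Fold changes come instead from edgeR's quasi-likelihood test with TMM scaling, fitted over 15674 genes in all 12 libraries, with standard errors (SE) and Benjamini-Hochberg adjusted p-values, and a gene rose or fell where the adjusted p was under 0.05.

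Per kilobase of exon, the granule chemokines were far above the other members. Averaged over the 12 libraries, Pf4 stood at 365 CPM per kb and Ppbp at 247 CPM per kb, against 35.8 CPM per kb for Tubb1, 24.3 for Itga2b, 11.6 for Gp9, 8.96 for Treml1, 8.46 for Gp1ba, 2.56 for Vwf and 0.373 for Gp1bb. Within a library, Tubb1 exceeded Itga2b and Itga2b exceeded Gp9 in 12 of 12 libraries, Pf4 exceeded Ppbp in 11, Gp9 exceeded Treml1 in 10 and Treml1 exceeded Gp1ba in 8, so only the last of these orders was often turned. Ppbp was above Tubb1, Gp1ba above Vwf and Vwf above Gp1bb in all 12. The Vwf value divides by 16.1 kb, the union of the exons of all its annotated transcripts, which lowers it.

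In mm10, with GENCODE M21 models, all 9 are protein-coding genes. Pf4 lies at chr5:90772435-90773383 and Ppbp at chr5:90768518-90770063, side by side on the plus strand in the CXC chemokine cluster. Gp1ba lies at chr11:70639122-70642036, Gp1bb at chr16:18620317-18622403, Gp9 at chr6:87778072-87779768, Itga2b at chr11:102453297-102470122, Vwf at chr6:125546774-125686679, Treml1 at chr17:48359916-48367176 and Tubb1 at chr2:174450695-174457882. Gp1bb and Itga2b are on the minus strand. Of the 2087 exon bases of Gp1bb, 92.9% are shared on the same strand with exons of Sept5 or Gm49601, and reads there may have been left out or assigned to either gene, so its counts are uncertain.

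Windows of 250 bases before RefSeq's transcription start were read for 8 of the 9 members from RefSeq's promoter table (GRCm38.p6). In 3 of them the window is not clear upstream sequence by the GENCODE models: that of Tubb1 ends short of the gene's start, 180 bases of that of Itga2b lie in its own exons, and all 250 bases of that of Gp1bb lie in an exon of Sept5. They were searched on both strands for GATAA, the core bound by GATA factors such as Gata1, and for GGAAG, a core bound by ETS factors such as Fli1; the motifs may share a base, and they were picked with the values already known. GGAAG occurred in all 8 windows, these 3 included, against 63.6% of the 27025 promoters in the table. GATAA occurred in 2, those of Gp1ba and Gp9, against 23.0% of all promoters, and the windows with both were these 2, against 13.3%. A match describes letters and is not a binding site, and no match says only that the letters are absent from this window. Gp1ba and Gp9 encode subunits of one receptor and differed in some comparisons between groups. Pf4 and Ppbp are neighbours and the most abundant members. The 4 windows below are shown for these reasons. Each is on the plus strand and is written 5′ to 3′ up to the base before the start, with both motifs in capitals. Where a motif lies on the other strand, GATAA reads TTATC here, and likewise the ETS core reads CTTCC.
Gp1ba: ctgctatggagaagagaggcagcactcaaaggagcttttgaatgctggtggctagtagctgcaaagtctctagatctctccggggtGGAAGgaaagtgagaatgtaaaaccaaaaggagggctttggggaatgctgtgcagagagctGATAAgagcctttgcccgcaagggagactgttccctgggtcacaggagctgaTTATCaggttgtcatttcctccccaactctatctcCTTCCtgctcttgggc
Gp9: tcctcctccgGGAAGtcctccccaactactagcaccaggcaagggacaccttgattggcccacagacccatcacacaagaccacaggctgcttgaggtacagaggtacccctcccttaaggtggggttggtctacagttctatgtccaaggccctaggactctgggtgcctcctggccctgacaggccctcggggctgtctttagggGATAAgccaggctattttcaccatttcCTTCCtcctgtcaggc
Pf4: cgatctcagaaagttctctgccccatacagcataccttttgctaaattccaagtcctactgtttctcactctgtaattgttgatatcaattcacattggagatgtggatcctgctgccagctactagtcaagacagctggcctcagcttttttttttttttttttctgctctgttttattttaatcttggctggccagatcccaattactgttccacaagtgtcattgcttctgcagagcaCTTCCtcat
Ppbp: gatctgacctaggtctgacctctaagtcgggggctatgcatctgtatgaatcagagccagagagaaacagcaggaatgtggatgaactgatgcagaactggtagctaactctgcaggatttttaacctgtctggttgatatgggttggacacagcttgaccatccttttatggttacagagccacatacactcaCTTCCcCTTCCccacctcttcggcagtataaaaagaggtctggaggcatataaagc
The Gp1ba window is chr11:70638872-70639121, the Gp9 window chr6:87777820-87778069, the Pf4 window chr5:90772185-90772434 and the Ppbp window chr5:90768268-90768517. GATAA stood 103 and 51 bases before the start of Gp1ba, the second on the other strand, and 43 bases before that of Gp9. CTTCC stood 16 bases before the start in both Gp1ba and Gp9, 9 bases before that of Pf4, and 56 and 50 bases before that of Ppbp.

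Across the groups the members fell into different courses. Gp9, Itga2b, Vwf and Tubb1 were highest in homozygous mice given SCFA, where every library exceeded every library of the homozygous untreated and control SCFA groups, and lowest on average in homozygous untreated mice. Pf4, Ppbp and Gp1ba rose with SCFA in control mice, and Pf4 and Gp1ba rose with it in homozygous mice too. Under SCFA, 6 of the 9 members rose in homozygous against control mice and none fell, beside 8.89% and 8.47% of all genes tested. Without SCFA 3 fell and 1 rose, beside 8.13% and 6.69%.

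**Figure D1:**
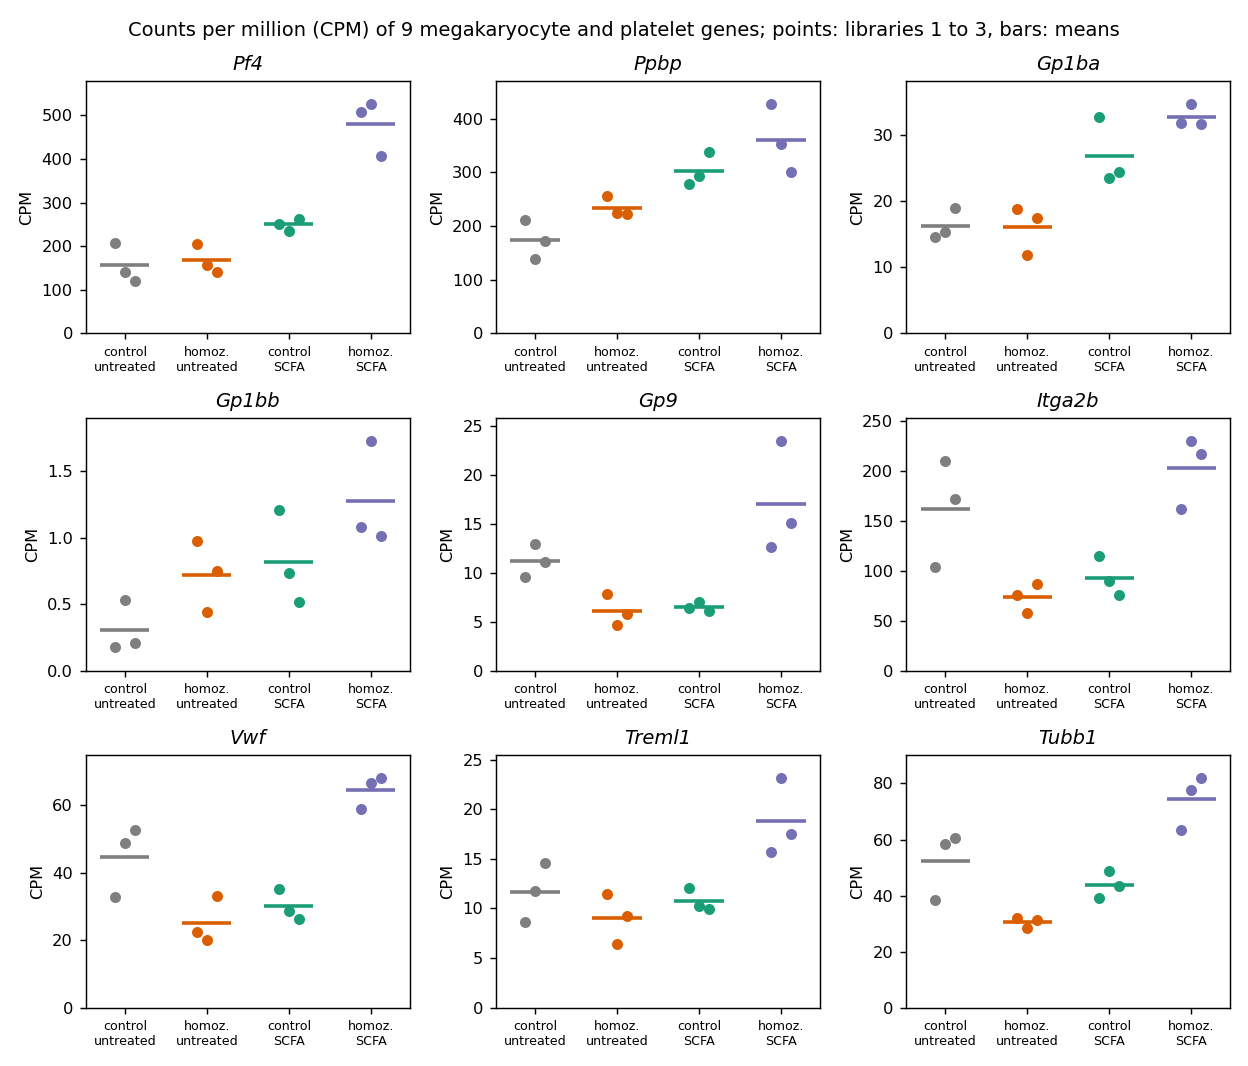
CPM (vertical axes, linear from 0) of each of the 9 genes in the 4 groups; points are libraries 1 to 3 from left to right and bars are group means. The 3 homozygous SCFA libraries lie above all others for Pf4, from 407 to 526 CPM, and above the homozygous untreated and control SCFA groups for Gp9, Itga2b, Vwf, Treml1 and Tubb1.

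The granule chemokines come first. Pf4, a chemokine that binds heparin, was at 207, 141 and 121 CPM in control untreated libraries 1 to 3, at 204.5, 157 and 141 CPM in homozygous untreated, at 251, 236 and 262 CPM in control SCFA and at 507, 526 and 407 CPM in homozygous SCFA. The untreated genotypes overlapped, control SCFA lay above both, and homozygous SCFA lay above all the rest. Pf4 was 1.92-fold higher by mean CPM in homozygous than in control mice under SCFA (log2 fold change 0.96 ± 0.20 SE, adjusted p = 0.00565). With SCFA it rose 2.86-fold in homozygous mice (1.49 ± 0.21, adjusted p = 3.03e-04) and 1.60-fold in control mice (0.77 ± 0.20, adjusted p = 0.0180). The call in control mice was lost without control untreated 2 (adjusted p = 0.0790), control untreated 3 (0.0829) or control SCFA 3 (0.0853). The difference between genotypes without SCFA was 0.24 ± 0.20 (adjusted p = 0.432), but 0.52 (adjusted p = 0.0360) without control untreated 1. The interaction, which is the genotype difference under SCFA minus that without, was 0.71 ± 0.29 (adjusted p = 0.0827), and reached 0.91 (adjusted p = 0.0365) without control untreated 3.

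Ppbp, the precursor of neutrophil-attracting CXC chemokines, was at 211, 139 and 172 CPM in control untreated, at 256, 224 and 223 CPM in homozygous untreated, at 278, 293 and 338 CPM in control SCFA and at 427, 353 and 300.2 CPM in homozygous SCFA. Each SCFA group lay above both untreated groups, and the SCFA groups overlapped each other. Ppbp rose with SCFA in control mice (log2 fold change 0.90 ± 0.18, adjusted p = 0.00688), a call lost without control SCFA 3 (0.0511). In homozygous mice the difference with SCFA was 0.59 ± 0.18 and missed the threshold at adjusted p = 0.0525, passing it without control untreated 1 (0.0193) or 2 (0.0177). It was also the only member higher in homozygous than in control mice without SCFA (0.57 ± 0.18, adjusted p = 0.0471), and that call held only without control untreated 1 or homozygous SCFA 1; leaving out any of the other 10 libraries in turn gave adjusted p-values from 0.0547 to 0.201. Under SCFA the genotypes differed by 0.26 ± 0.18 (adjusted p = 0.345), and the interaction was -0.31 ± 0.25 (adjusted p = 0.397).

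Among the 3 members of the GPIb-IX receptor, Gp1ba and Gp9 both rose with SCFA in homozygous mice but differed in other comparisons. Gp1bb had too few counts to be placed with either. Gp1ba, the chain that holds the binding site for von Willebrand factor, was at 14.6, 15.4 and 18.9 CPM in control untreated, at 18.8, 11.8 and 17.5 CPM in homozygous untreated, at 32.7, 23.5 and 24.4 CPM in control SCFA and at 31.8, 34.7 and 31.7 CPM in homozygous SCFA. All 6 SCFA libraries lay above all 6 untreated libraries, and the genotypes overlapped at both treatments. Gp1ba rose with SCFA in control mice (log2 fold change 0.83 ± 0.19, adjusted p = 0.0109; 0.0525 without control untreated 2) and in homozygous mice (1.00 ± 0.19, adjusted p = 0.00415). The genotype differences were 0.12 ± 0.19 without SCFA, where the mean CPM ratio of 0.984 leans the other way, and 0.30 ± 0.19 under SCFA (adjusted p = 0.690 and 0.296), and the interaction was 0.18 ± 0.27 (adjusted p = 0.659).

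Gp9, the small subunit needed to bring the complex to the surface, was at 9.56, 12.9 and 11.1 CPM in control untreated, at 7.85, 4.68 and 5.83 CPM in homozygous untreated, at 6.36, 7.05 and 6.05 CPM in control SCFA and at 12.6, 23.4 and 15.05 CPM in homozygous SCFA. Control untreated and homozygous SCFA overlapped only at their edges, and both lay above the other groups. Gp9 was 2.62-fold higher by mean CPM in homozygous than in control mice under SCFA (log2 fold change 1.40 ± 0.25, adjusted p = 0.00183) and rose 2.78-fold with SCFA in homozygous mice (1.44 ± 0.25, adjusted p = 0.00221). Its difference between genotypes without SCFA was -0.72 ± 0.25 (adjusted p = 0.0679) and its difference with SCFA in control mice -0.68 ± 0.25 (adjusted p = 0.0673); both passed without control untreated 1 (0.0429 and 0.0408). The interaction was 2.12 ± 0.36 (adjusted p = 0.00173).

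Because both genes are read from the same library, their ratio does not depend on scaling. CPM of Gp9 relative to Gp1ba was 0.656, 0.839 and 0.587 in control untreated, 0.417, 0.397 and 0.333 in homozygous untreated, 0.195, 0.300 and 0.248 in control SCFA and 0.395, 0.675 and 0.475 in homozygous SCFA. Control SCFA libraries had the lowest ratios, below all other groups. Gp1bb, which pairs with Gp1ba through disulfide bonds, had only 3 to 34 counts in a library and passed no comparison; its counts were 3, 9 and 4 in control untreated, 19, 9 and 15 in homozygous untreated, 25, 15 and 9 in control SCFA and 21, 34 and 18 in homozygous SCFA. Its log2 differences ran from 0.65 ± 0.63 to 1.52 ± 0.67 over the 4 comparisons between groups, and its interaction was -0.73 ± 0.91 (adjusted p = 0.593), so its SE does not allow it to be placed with Gp1ba or with Gp9. Gp5, the remaining subunit of the receptor and not among the 9, averaged 24.6 ± 5.05, 14.5 ± 1.79, 20.8 ± 0.41 and 38.7 ± 7.18 CPM (SD, n = 3) in control untreated, homozygous untreated, control SCFA and homozygous SCFA, with an interaction of 1.52 ± 0.25 (adjusted p = 0.00140).

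Itga2b, the αIIb chain of the fibrinogen receptor and also a gene of stem and progenitor cells, was at 104, 209.6 and 172 CPM in control untreated, at 76.0, 57.7 and 86.6 CPM in homozygous untreated, at 114, 89.2 and 75.6 CPM in control SCFA and at 162, 229 and 216 CPM in homozygous SCFA. Homozygous SCFA lay above homozygous untreated and control SCFA, and overlapped control untreated, whose library 1 was the lowest of its group. Itga2b was 2.18-fold higher by mean CPM in homozygous than in control mice under SCFA (log2 fold change 1.14 ± 0.22, adjusted p = 0.00288) and rose 2.76-fold with SCFA in homozygous mice (1.44 ± 0.22, adjusted p = 7.22e-04). Without SCFA it was lower in homozygous mice (-0.98 ± 0.22, adjusted p = 0.0109; 0.0673 without homozygous untreated 2), and the interaction was 2.12 ± 0.31 (adjusted p = 7.51e-04). With SCFA in control mice it fell by 0.69 ± 0.22 on the log2 scale (adjusted p = 0.0378). That call was lost without control untreated 2 (0.156) or 3 (0.0940), homozygous untreated 1 (0.0568), control SCFA 2 (0.114) or 3 (0.168), or homozygous SCFA 2 (0.0523) or 3 (0.0561).

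Its partner Itgb3, the β3 chain, which other cells also use, averaged 134 ± 27.9, 103 ± 3.78, 148 ± 6.66 and 219 ± 15.4 CPM (SD, n = 3) in control untreated, homozygous untreated, control SCFA and homozygous SCFA. It rose with SCFA in homozygous mice (log2 fold change 1.06 ± 0.13, adjusted p = 1.05e-04) and was higher in homozygous mice under SCFA (0.58 ± 0.13, adjusted p = 0.00794), with an interaction of 0.80 ± 0.19 (adjusted p = 0.00806).

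Vwf, the adhesive protein that tethers platelets, is made by endothelium and by some stem cells as well as by megakaryocytes. It was at 32.75, 48.8 and 52.5 CPM in control untreated, at 22.4, 19.9 and 33.1 CPM in homozygous untreated, at 35.2, 28.6 and 26.4 CPM in control SCFA and at 58.9, 66.5 and 67.9 CPM in homozygous SCFA. The homozygous SCFA libraries lay above all other libraries, and the other 3 groups overlapped in part. Vwf was 2.14-fold higher by mean CPM in homozygous than in control mice under SCFA (log2 fold change 1.12 ± 0.19, adjusted p = 0.00139), rose 2.56-fold with SCFA in homozygous mice (1.34 ± 0.19, adjusted p = 4.33e-04) and had an interaction of 1.80 ± 0.27 (adjusted p = 9.32e-04). Its fall in homozygous against control mice without SCFA (-0.68 ± 0.19, adjusted p = 0.0312) was lost without control untreated 2 (0.0909) or 3 (0.110), homozygous untreated 1 (0.124) or 2 (0.154), control SCFA 2 (0.0535), or homozygous SCFA 2 (0.0517) or 3 (0.0530). With SCFA in control mice the difference was -0.46 ± 0.19 (adjusted p = 0.0969; 0.0178 without control untreated 1).

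Of 11 endothelial marker genes, 7 passed the filter. The 11 together summed to 18.6 to 26.9 CPM in control untreated, 12.98 to 13.9 in homozygous untreated and 11.3 to 17.7 in control SCFA. In homozygous SCFA, where Vwf was highest, they summed to 11.6 to 12.8 CPM. The part of endothelial cells in the Vwf differences was not tested. Cdh5, the junctional cadherin of endothelium, averaged 1.06 CPM in control untreated and 0.184 CPM in homozygous SCFA, and Cldn5, Robo4, Sox17 and Sox18 were under 1 CPM in every library, though none of the 11 was at 0 in all of them. Kdr averaged 6.61 to 8.39 CPM over the groups. The receptor Tie1 went from 2.76 CPM in control untreated to 0.780 CPM in homozygous untreated and from 1.23 CPM in control SCFA to 2.53 CPM in homozygous SCFA, with an interaction of 2.71 ± 0.66 (adjusted p = 0.00995). Tie1 was the 1 gene of the 7 tested whose interaction passed, or 14.3% beside 13.6% of all genes, and the median of the 7 was -0.41. In homozygous against control mice under SCFA none of the 7 rose and 1 fell, beside 8.89% and 8.47%.

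Treml1, a receptor stored in alpha granules and a marker of platelet activation, was at 8.68, 11.8 and 14.6 CPM in control untreated, at 11.5, 6.39 and 9.21 CPM in homozygous untreated, at 12.1, 10.2 and 9.98 CPM in control SCFA and at 15.7, 23.1 and 17.5 CPM in homozygous SCFA. The homozygous SCFA libraries were the highest and the other 3 groups overlapped. Treml1 rose with SCFA in homozygous mice (log2 fold change 1.03 ± 0.24, adjusted p = 0.0157), except without homozygous untreated 2 (0.0725) or homozygous SCFA 2 (0.0814). Under SCFA it was higher in homozygous mice (0.82 ± 0.24, adjusted p = 0.0302), a call lost without control SCFA 2 (0.0934) or 3 (0.101) or homozygous SCFA 2 (0.133) or 3 (0.0579). The interaction of 1.04 ± 0.34 (adjusted p = 0.0383) held only without control untreated 1, homozygous untreated 1 or homozygous SCFA 1, and leaving out any of the other 9 libraries gave adjusted p-values from 0.0510 to 0.115. The differences between genotypes without SCFA (-0.22 ± 0.24) and with SCFA in control mice (-0.01 ± 0.24) did not pass (adjusted p = 0.565 and 0.984).

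Tubb1, the β-tubulin of the platelet's marginal band, was at 38.4, 58.6 and 60.55 CPM in control untreated, at 32.1, 28.4 and 31.3 CPM in homozygous untreated, at 39.3, 48.8 and 43.35 CPM in control SCFA and at 63.5, 77.8 and 81.9 CPM in homozygous SCFA. Homozygous untreated lay below all other libraries and homozygous SCFA above all others. Tubb1 was 1.70-fold higher by mean CPM in homozygous than in control mice under SCFA (log2 fold change 0.78 ± 0.16, adjusted p = 0.00501) and rose 2.43-fold with SCFA in homozygous mice (1.25 ± 0.16, adjusted p = 1.83e-04). The interaction was 1.40 ± 0.23 (adjusted p = 0.00152). Without SCFA it was lower in homozygous mice (-0.62 ± 0.16, adjusted p = 0.0237), except without control untreated 2 (0.0757) or 3 (0.0882) or homozygous untreated 1 (0.0607) or 2 (0.1). In control mice the difference with SCFA was -0.15 ± 0.16 (adjusted p = 0.548).

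**Figure D2:**
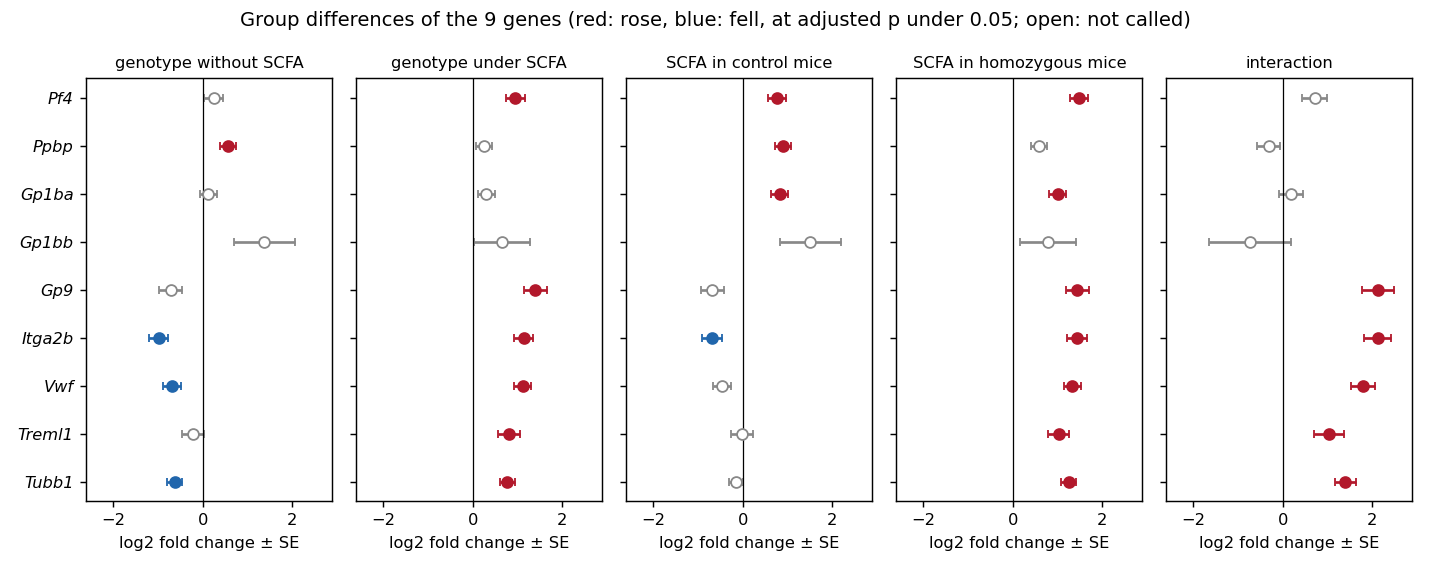
Fitted log2 fold changes (horizontal axes) of the 9 genes in the 4 comparisons between groups and in the interaction; bars are ± 1 SE, red marks genes that rose and blue genes that fell at an adjusted p under 0.05, and open circles did not pass. All 9 values lie above 0 for genotype under SCFA and for SCFA in homozygous mice, whereas the other 2 comparisons hold values on both sides.

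Counted over the members, 1 of 9 rose and 3 fell between genotypes without SCFA, where 6.69% of all genes tested rose and 8.13% fell. Under SCFA 6 of 9 rose and none fell in homozygous against control mice, beside 8.89% and 8.47% of all genes. With SCFA in control mice 3 rose and 1 fell, beside 8.89% and 13.0%, and in homozygous mice 7 rose and none fell, beside 3.96% and 5.61%. The interaction was positive and past the threshold for 5 and negative for none, beside 13.6% and 11.6% of all genes.

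The medians of the members' log2 differences, in the same order, were -0.22, 0.82, -0.01, 1.25 and 1.04, and the medians of all genes tested were -0.04, -0.03, 0.04, -0.00 and -0.08. These comparisons share groups with one another. Scaling by library totals alone moved the median of all genes by -0.15 for genotype without SCFA, -0.11 for SCFA in control mice and 0.13 for the interaction. No called member changed direction, but some calls changed. Between genotypes without SCFA no member rose and 4 fell under library totals, so the Ppbp call was lost. With SCFA in control mice 3 rose and 2 fell, in homozygous mice 8 rose, and the interaction passed for 6. Leaving out each library in turn left Pf4, Gp9, Itga2b, Vwf and Tubb1 past the threshold for genotype under SCFA, these 5 and Gp1ba for SCFA in homozygous mice, and Gp9, Itga2b, Vwf and Tubb1 for the interaction. The counts for genotype without SCFA and for SCFA in control mice were less stable, running from 0 to 6 and from 1 to 6 members in those fits. Over all genes the counts in these comparisons ran from 770 to 4333 and from 613 to 5090.

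The 12 libraries also show how the members vary with one another, as a description only, since libraries share groups and depth. Among the 5 genes with a called interaction, Pearson's r of log2 CPM over the 12 libraries ran from 0.85 to 0.96 in 10 pairs. Among Pf4, Ppbp and Gp1ba it ran from 0.75 to 0.87 in 3 pairs, and between these sets, which were split with the values known, from -0.02 to 0.79 in 15 pairs. For deviations from the group means, r was 0.30 to 0.87 within the first set, -0.06 to 0.69 within the second and -0.77 to 0.85 between the sets. Gp1ba was at -0.06 with Pf4 and -0.05 with Ppbp in these deviations, but at 0.48 with Gp9, 0.62 with Itga2b, 0.65 with Vwf, 0.85 with Treml1 and 0.24 with Tubb1, so its place with Pf4 and Ppbp rests on the group means.

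Because the sets were split with the values known, a ratio between them describes the libraries and does not test the split. Itga2b relative to Pf4 in CPM was 0.502, 1.49 and 1.42 in control untreated, 0.372, 0.367 and 0.613 in homozygous untreated, 0.455, 0.379 and 0.288 in control SCFA and 0.319, 0.436 and 0.531 in homozygous SCFA. Only control untreated 2 and 3 held more Itga2b than Pf4, and control untreated 1 lay among the other groups. The 9 genes summed to 622 to 638 CPM in control untreated, 511 to 630.2 in homozygous untreated, 737 to 787 in control SCFA and 1139 to 1335 in homozygous SCFA. Pf4 and Ppbp made up 43.9% and 47.0% of that sum in control untreated 2 and 3 and 62.1% to 76.3% in the other 10 libraries.

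**Figure D3:**
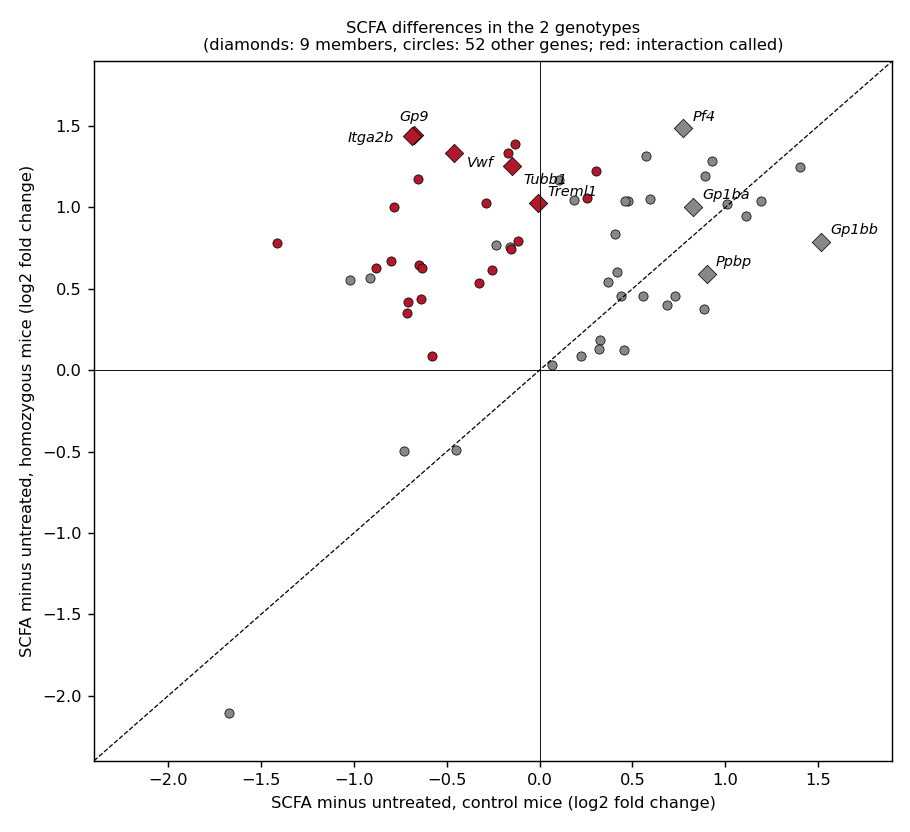
Log2 fold change with SCFA in control mice (horizontal) against that in homozygous mice (vertical); diamonds are the 9 genes, circles the 52 other megakaryocyte and platelet genes, red marks a called interaction and the dashed line equal values. Gp9, Itga2b, Vwf, Treml1 and Tubb1 lie left of 0 and above 1.0, while Pf4, Ppbp, Gp1ba and Gp1bb lie to the right of 0.

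A further 52 genes of the lineage, all of which passed the filter, were sorted by role. Some are also genes of other cells, among them F13a1 and Plek. These 2 averaged 1511 and 990 CPM in control untreated, against 156 CPM for Pf4. The part of other cells in the counts below was not tested. Between genotypes without SCFA 3 rose, or 5.77% beside 6.69% of all genes, and 10 fell, or 19.2% beside 8.13% (median log2 difference -0.22). Under SCFA 20 rose, or 38.5% beside 8.89%, and none fell beside 8.47% (0.52). With SCFA in control mice 10 rose and 11 fell, or 19.2% and 21.2% beside 8.89% and 13.0% (0.09). In homozygous mice 25 rose, or 48.1% beside 3.96%, and none fell beside 5.61% (0.66). The interaction passed for 20, all positive, or 38.5% beside 13.6% (0.70). The role lists below hold 10 to 17 genes each, and counts of 1 or 2 in them are given without reading anything from them.

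Among 10 genes that regulate the lineage, most of them transcription factors, 5 rose in homozygous against control mice under SCFA (8.89% of all genes) and 3 with SCFA in homozygous mice (3.96% of all genes), and the interaction was positive and passed for 4 (13.6% of all genes). Gfi1b, a repressor needed for platelet and red cell formation, fell without SCFA (-0.76 ± 0.21, adjusted p = 0.0269; lost without control untreated 2, 0.103, or homozygous untreated 2, 0.119) and rose under SCFA (1.07 ± 0.21, adjusted p = 0.00288), with an interaction of 1.83 ± 0.29 (adjusted p = 0.00132). Gata1, the lineage factor shared with red cells, averaged 29.4 ± 3.24, 22.1 ± 0.73, 21.8 ± 0.38 and 32.7 ± 4.05 CPM (SD, n = 3) in control untreated, homozygous untreated, control SCFA and homozygous SCFA. It rose in homozygous against control mice under SCFA (0.60 ± 0.14, adjusted p = 0.00912) and had an interaction of 0.86 ± 0.20 (adjusted p = 0.00777). Its rise with SCFA in homozygous mice (0.53 ± 0.14, adjusted p = 0.0267) was lost without any 1 of the homozygous untreated libraries 1 (0.0688), 2 (0.0520) and 3 (0.0622) or of homozygous SCFA 2 (0.0997) and 3 (0.0701).

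In control mice 3 of these 10 regulators fell with SCFA, beside 13.0% of all genes. The smallest p-values were those of Nfe2, the factor for late platelet formation (-0.58 ± 0.13, adjusted p = 0.00911; 0.0569 without control SCFA 3), and its partner Mafg (-0.64 ± 0.19, adjusted p = 0.0267). The Mafg call was lost without control untreated 2 (0.0963) or 3 (0.0873) or control SCFA 1 (0.0606), 2 (0.0637) or 3 (0.115).

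Of 17 platelet surface receptors, 3 fell without SCFA (8.13% of all genes) and 4 rose under it (8.89%) between genotypes, and 6 rose with SCFA in homozygous mice (3.96%). P2rx1, an ATP-gated channel, fell without SCFA (-0.91 ± 0.20, adjusted p = 0.0108; 0.0624 without homozygous untreated 2). Gp5 fell too (-0.61 ± 0.17, adjusted p = 0.0330), a call lost without control untreated 2 (0.131) or 3 (0.0523), homozygous untreated 1 (0.0617), 2 (0.141) or 3 (0.0522), or control SCFA 2 (0.0528). Under SCFA Gp5 (0.91 ± 0.17, adjusted p = 0.00269) and the tetraspanin Cd9 (0.86 ± 0.12, adjusted p = 2.53e-04), which B cells and other cells also express, were higher in homozygous mice. With SCFA in control mice 3 of the 17 rose and 2 fell, beside 8.89% and 13.0% of all genes, so the falls are no more frequent here than over all genes. The adhesion receptor Cd226, also a receptor of lymphocytes, rose (1.40 ± 0.25, adjusted p = 0.00502) and Cd9 fell (-0.64 ± 0.12, adjusted p = 0.00598). The interaction passed for 4, all positive (13.6% of all genes), with Cd9 at 1.27 ± 0.17 (adjusted p = 4.34e-04). In homozygous mice Gp5 rose with SCFA by 1.39 ± 0.18 (adjusted p = 1.23e-04).

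Of 11 genes for granule contents and granule formation, 7 rose with SCFA in homozygous mice, beside 3.96% of all genes. Clu, a secreted chaperone, rose by 1.34 ± 0.17 (adjusted p = 9.86e-05) and Mmrn1, a factor V binding protein, by 1.28 ± 0.22 (adjusted p = 0.00168). Clu and the protease inhibitor Serpine2 were among 4 that were higher in homozygous mice under SCFA, beside 8.89% of all genes (0.92 ± 0.16, adjusted p = 0.00166, and 0.62 ± 0.13, adjusted p = 0.00603). In control mice 4 rose with SCFA and 1 fell, beside 8.89% and 13.0% of all genes. Rab27b, which directs granule traffic, rose by 1.11 ± 0.22 (adjusted p = 0.00678), and Mmrn1 by 0.93 ± 0.22 (adjusted p = 0.0110; lost without control untreated 2, 0.0504, or control SCFA 3, 0.0623).

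Without SCFA, 2 granule genes rose and 3 fell in homozygous mice, beside 6.69% and 8.13% of all genes. F13a1, the coagulation transglutaminase, also a monocyte gene, rose (0.52 ± 0.11, adjusted p = 0.00708) and Clu fell (-0.59 ± 0.16, adjusted p = 0.0303). The Clu call was lost without control untreated 2 (0.1) or 3 (0.0861), homozygous untreated 1 (0.0821) or 2 (0.148), or control SCFA 1 (0.05, just above the threshold) or 2 (0.0511). The interaction passed for 3, all positive (13.6% of all genes), with Nbeal2, needed to form alpha granules, at 1.79 ± 0.33 (adjusted p = 0.00284) and Clu at 1.51 ± 0.23 (adjusted p = 0.00102).

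Of 14 genes for the cytoskeleton, signalling and eicosanoid synthesis, 9 rose with SCFA in homozygous mice, beside 3.96% of all genes, the smallest p-values being those of Alox12, the platelet 12-lipoxygenase (1.22 ± 0.17, adjusted p = 2.64e-04), and Cavin2, a caveolar coat protein (1.31 ± 0.23, adjusted p = 0.00253). Under SCFA 7 were higher in homozygous mice, beside 8.89% of all genes, with Fermt3, the kindlin that activates integrins, at 0.89 ± 0.17 (adjusted p = 0.00320) and Tbxas1, thromboxane synthase, also made by macrophages, at 0.75 ± 0.14 (adjusted p = 0.00274). Myl9, a myosin light chain, fell in homozygous mice without SCFA (-1.21 ± 0.22, adjusted p = 0.00356) and with SCFA in control mice (-1.42 ± 0.23, adjusted p = 0.00364); these comparisons share the control untreated libraries. In the first of these 1 rose and 3 fell, beside 6.69% and 8.13% of all genes, with Rasgrp2, an activator of Rap1, among them (-0.65 ± 0.15, adjusted p = 0.0114; 0.0661 without homozygous untreated 2). In the second 3 rose and 5 fell, beside 8.89% and 13.0% of all genes, and Plek, a protein kinase C substrate of platelets and leukocytes, rose (0.89 ± 0.14, adjusted p = 0.00390). The interaction passed for 9, all positive (13.6% of all genes), with Myl9 at 2.20 ± 0.32 (adjusted p = 7.08e-04) and Fermt3 at 1.47 ± 0.25 (adjusted p = 0.00169).

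The mean standardised value of the 9 weighs all members alike, Gp1bb with its 3 to 34 counts included, and pools members with different courses. The genes whose log2 CPM followed this mean most closely, by Pearson's r over the 12 libraries, were not on the lineage lists. They were Zfp36l2, an RNA-binding protein (r = 0.962), Nxpe5 (0.956), Hgsnat, a lysosomal acetyltransferase (0.951), Ttyh3 (0.947) and H2-Aa, an MHC class II chain (0.943). Zfp36l2 averaged 67.2, 57.3, 73.1 and 104 CPM in control untreated, homozygous untreated, control SCFA and homozygous SCFA, and H2-Aa 250.3, 229.96, 298 and 434 CPM.

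Markers of other cells moved between the same groups. The 13 measured erythroid genes summed to 19670 to 21260 CPM in control untreated, 8771 to 11340 in homozygous untreated, 11330 to 12840 in control SCFA and 2302 to 2803 in homozygous SCFA, the group where most members were highest. Hba-a1, an α-globin, averaged 4757, 1256, 1699 and 395 CPM in these groups. Klf1, the erythroid factor, stood at 13.6, 17.8, 4.45 and 9.78 CPM and Car1, carbonic anhydrase of early red cell precursors, at 0.858, 7.25, 0.473 and 49.5 CPM. Of the 13, 7 fell and 3 rose in homozygous against control mice under SCFA, beside 8.47% and 8.89% of all genes. Klf1 (1.15 ± 0.24, adjusted p = 0.00430) and Car1 (6.67 ± 0.81, adjusted p = 6.59e-05) were among those that rose. With SCFA in homozygous mice 11 fell and 1 rose, beside 5.61% and 3.96%. In control mice 8 fell with SCFA and none rose, beside 13.0% and 8.89%.

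The 8 B lineage genes summed to 1572 to 1686 CPM in control untreated, 478 to 536 in homozygous untreated, 1478 to 1507 in control SCFA and 145 to 161 in homozygous SCFA, with Cd79a at 320.3, 85.3, 222 and 32.9 CPM. In the same order, 8 basophil, mast cell and eosinophil genes summed to 2000 to 2601, 1965 to 2325, 1267 to 1372 and 1768 to 2015 CPM, and Mcpt8 averaged 142, 215, 103 and 206 CPM. The 8 monocyte and macrophage genes summed to 3332 to 3776, 4892 to 4991, 3845 to 4148 and 5197 to 5408 CPM. Csf1r averaged 513, 388, 339 and 654 CPM, whereas Ccr2 averaged 1880, 2770, 2341 and 3032 CPM. Without SCFA 4 of these 8 rose and 1 fell in homozygous mice, beside 6.69% and 8.13% of all genes. Under SCFA 2 rose and none fell, beside 8.89% and 8.47%. Neutrophil genes summed to 42940 to 58270, 59720 to 75380, 60910 to 62570 and 62230 to 70500 CPM, with Elane at 717, 600.3, 397 and 653 CPM. S100a8, the largest of them, averaged 21010, 35860, 35470 and 36880 CPM. Of the 10, 6 rose and none fell in homozygous against control mice under SCFA, beside 8.89% and 8.47% of all genes. The interaction passed as positive for 5 and as negative for 1, beside 13.6% and 11.6%. With SCFA in homozygous mice 1 rose and none fell, beside 3.96% and 5.61%.

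Of 9 stem and progenitor genes tested, 2 rose and none fell in homozygous against control mice under SCFA, beside 8.89% and 8.47% of all genes. The interaction passed as positive for 2 of them and as negative for 1, beside 13.6% and 11.6%. Stem and progenitor genes summed to 192 to 216 CPM in control untreated, 223 to 232 in homozygous untreated, 185 to 196 in control SCFA and 213 to 224 in homozygous SCFA, with Kit averaging 51.0 to 64.6 CPM. The 6 T cell genes, of the lineage that the Cre targets, summed to 57.0 to 67.2, 37.0 to 42.4, 34.5 to 41.1 and 31.3 to 35.4 CPM, with Cd3e averaging 1.81 to 3.84 CPM. The 5 stromal and bone genes summed to 4.25 to 26.9 CPM in control untreated and to at most 6.31 CPM in the other groups, the top value being control untreated 3, where Col1a1 reached 19.7 CPM. The part of these other cells in the members' differences was not tested.

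**Figure D4:**
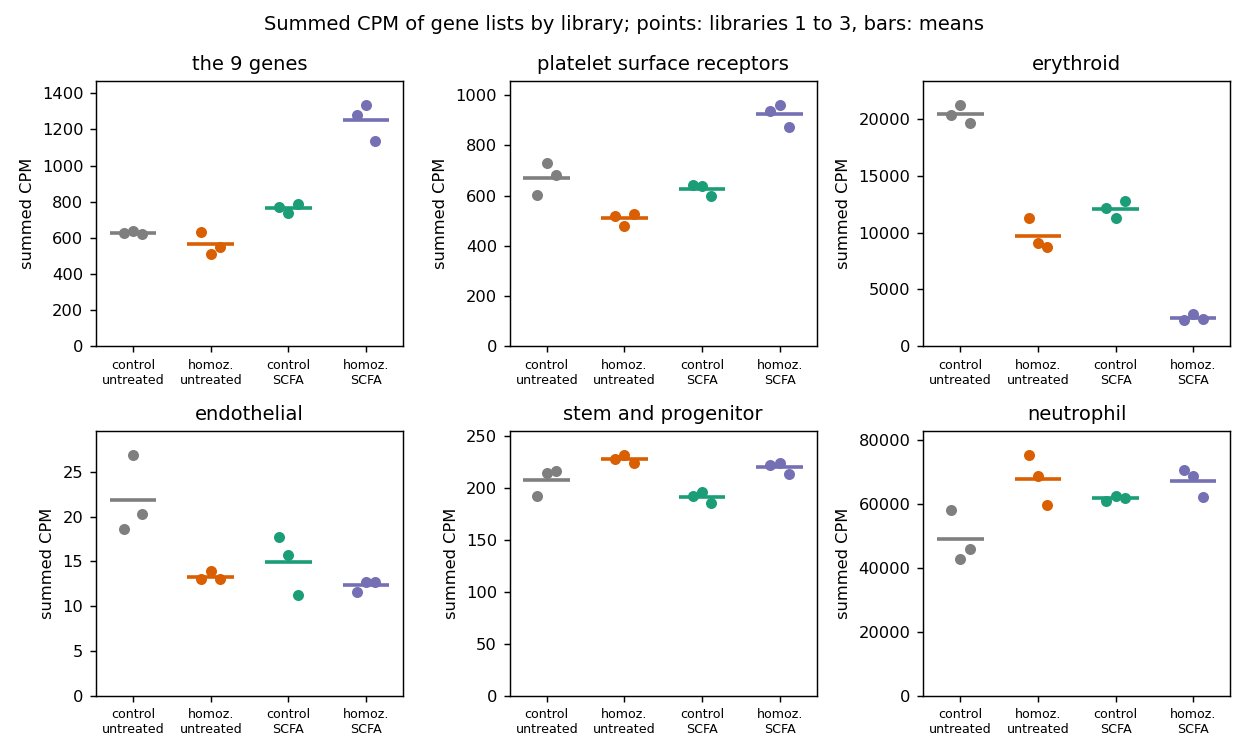
Summed CPM (vertical axes, linear from 0) of the 9 genes and of 5 lists of other genes in the 4 groups; points are libraries 1 to 3 and bars are means. The 9 genes are highest in homozygous SCFA, at 1139 to 1335 CPM, where erythroid genes are lowest, at 2302 to 2803 CPM.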

How the data were processed

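RNA from 12 libraries was counted per gene by the authors; the deposited table holds raw counts for 55291 symbols, 22077 of them at 0 in every library. Per the submitters' processing notes, STAR, featureCounts and mm10 were used. For their versions, the gene models and the use of strand, nothing is given in the sources used here. Libraries were grouped by title. The test was edgeR's quasi-likelihood one (version 4.0.16, R 4.3.3), checked on simulated data, with filterByExpr, TMM factors, 4 group means and Benjamini-Hochberg adjustment. CPM use library totals without TMM. Locations and exon lengths come from GENCODE M21, in which 96.4% of symbols were found, and promoters from RefSeq (GRCm38.p6). The members and all lists were chosen with earlier results of these data known. Named in full were the members and Gp5, Itgb3 and Gata1; then, per comparison and role list, the 2 called genes with the smallest p; the 5 genes most like the members; and up to 3 genes from the start of each marker list. Cldn5, Robo4, Sox17, Sox18, Car1, S100a8 and Col1a1 were included after their values were seen or as whole-list facts. Ahsp, on the erythroid list, was not analysed here, and some genes that the rule names are not reported here. Alternatives were RLE factors, library totals, no filter, DESeq2 1.42.0, limma-voom (limma 3.58.1), a replicate block, only the libraries compared, and leaving out each library.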

Additional observations from a re-analysis of the deposited data

Results flagged for a closer look

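For 5 of the 9 genes the difference with SCFA was not the same in the 2 genotypes, by edgeR's test of the interaction. SCFA and the label date coincide, so the interaction cannot be told apart from a difference with the date that is unlike in the 2 genotypes. All 5 were positive, beside 13.6% of all genes tested with a positive call. The interaction, on the log2 scale, was 2.12 for Gp9 (adjusted p = 0.00173), 2.12 for Itga2b (adjusted p = 7.51e-04), 1.80 for Vwf (adjusted p = 9.32e-04), 1.40 for Tubb1 (adjusted p = 0.00152) and 1.04 for Treml1 (adjusted p = 0.0383). It stayed past the threshold for the first 4 whichever library was left out, and for Treml1 it missed the threshold without any 1 of 9 libraries.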

How the results depend on the processing

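No member called in any comparison changed direction under any alternative. Scaling by library totals was chosen after seeing the data. With only the libraries compared in the fit, the count between genotypes without SCFA went from 4 members to 1 and from 13 other lineage genes to 4; with limma-voom the latter was 20. Leaving out each library in turn gave 0 to 6 members and 2 to 19 other genes there. It gave 11 to 23 other genes between genotypes under SCFA, 1 to 6 members and 6 to 27 other genes with SCFA in control mice, and 16 to 28 other genes with SCFA in homozygous mice.

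Replicate numbers gave no clear pairing of the libraries: 18 correlations between same-numbered libraries ran from -0.115 to 0.108, and 6 of 12 libraries correlated best with their own number. With 3 libraries in a group, these values cannot settle whether libraries were paired. With the replicate number as a block, the members called were 4, 6, 3, 8 and 4 for genotype without and under SCFA, SCFA in control and in homozygous mice, and the interaction, beside 4, 6, 4, 7 and 5 without it. The calls lost under the block were Itga2b with SCFA in control mice (adjusted p = 0.0598) and the Treml1 interaction (0.0573), and Ppbp with SCFA in homozygous mice was gained (0.0499). The causes were not tested. Gp1bb had 3 to 34 counts in a library, and whether depth or its shared exons set this was not tested.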
